A study of Mus musculus with 4 samples.

Results

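The axon guidance ligands and receptors of the mouse pituitary gland were described across cell classes and libraries. They were found by gene symbol: semaphorins, plexins, neuropilins, ephrins, Eph receptors, Slits, Robos, netrins, and the netrin receptors of the Unc5 and Dcc families. Of the 32285 features in the files, 76 had such a symbol, and 71 of them are guidance genes: 20 semaphorins, 9 plexins, 2 neuropilins, 9 EphA and 5 EphB receptors, 5 ephrin-A and 3 ephrin-B ligands, 3 Slits, 4 Robos, 6 netrins, 4 Unc5 receptors and Dcc. The other 5 share the letters alone (3 antisense RNAs of Plxna4, Unc50 and Unc5cl) and are left out of the counts below, except those of promoters.

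Single nuclei of pituitary glands of wild-type UM-HET3 mice, a stock bred from several inbred strains, were sequenced with the 10x Genomics 3' method. The 4 libraries are labelled 22-month females, 22-month males, 5-month females and 5-month males. Each is 1 pool of 3 snap-frozen glands, so no group has a second library and the mice of a pool cannot be told apart. The labels name no treatment and no engineered allele, and the title of the series is about the aging of pituitary stem cells.

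Guidance ligands are secreted or membrane-bound proteins that attract or repel growing axons and migrating cells. Class 3 semaphorins act through neuropilins and plexins, Slits through Robos, netrins through Dcc and Unc5 receptors, and ephrins through Eph receptor tyrosine kinases. Several of these families also act outside the nervous system, for example on blood vessels, and the pituitary joins hormone-secreting cells of its anterior and intermediate lobes with pituicytes, the glia of its posterior lobe, and a dense bed of capillaries.

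The promoters of 4 members are shown because these genes kept their difference with labelled age in the prolactin class whichever library was left out, as given below: Sema3a, Unc5c and Epha5 were higher and Ntn4 was lower at 22 months. The RefSeq start of Sema3a lies inside the span that the files' annotation gives the gene. The sequences are from RefSeq on GRCm38.p6 and run from 250 bases before to 50 after the transcript start. Sema3a lies at chr5:13396534-13396833 on the plus strand, Unc5c at chr3:141465314-141465613 on the plus strand, Epha5 at chr5:84417333-84417632 on the minus strand and Ntn4 at chr10:93640799-93641098 on the plus strand.
Sema3a: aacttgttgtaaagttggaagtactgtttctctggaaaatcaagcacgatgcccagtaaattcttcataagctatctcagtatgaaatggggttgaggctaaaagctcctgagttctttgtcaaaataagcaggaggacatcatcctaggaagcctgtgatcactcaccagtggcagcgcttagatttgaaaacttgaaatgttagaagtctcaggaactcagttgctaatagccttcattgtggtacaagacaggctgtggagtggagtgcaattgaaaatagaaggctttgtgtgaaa
Unc5c: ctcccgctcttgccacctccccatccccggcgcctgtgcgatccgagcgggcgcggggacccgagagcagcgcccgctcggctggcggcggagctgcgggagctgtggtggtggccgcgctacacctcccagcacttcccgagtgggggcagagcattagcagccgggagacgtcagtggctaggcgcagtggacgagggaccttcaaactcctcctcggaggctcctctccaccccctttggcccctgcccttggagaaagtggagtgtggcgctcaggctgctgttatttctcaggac
Epha5: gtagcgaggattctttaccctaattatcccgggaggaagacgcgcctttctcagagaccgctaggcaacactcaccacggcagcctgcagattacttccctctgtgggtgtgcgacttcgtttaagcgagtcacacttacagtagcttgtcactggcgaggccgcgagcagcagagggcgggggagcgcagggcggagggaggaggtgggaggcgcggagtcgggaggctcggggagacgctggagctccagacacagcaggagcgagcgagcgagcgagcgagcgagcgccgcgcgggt
Ntn4: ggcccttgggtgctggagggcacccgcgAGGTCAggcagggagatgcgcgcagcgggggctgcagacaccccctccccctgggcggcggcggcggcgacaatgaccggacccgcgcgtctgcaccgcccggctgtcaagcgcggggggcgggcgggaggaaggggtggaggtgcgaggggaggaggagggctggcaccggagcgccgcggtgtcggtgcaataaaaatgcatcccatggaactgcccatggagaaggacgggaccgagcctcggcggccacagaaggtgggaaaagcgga
Capitals mark a match to any of 3 motifs, searched on both strands: the nuclear receptor hexamer AGGTCA, the estrogen response element GGTCA, any 3 bases and TGACC, which begins with the last letters of that hexamer, and ATGNATA, a core of sites of the pituitary factor Pit-1. The Ntn4 window held 1 hexamer, beginning at base 29, and the other windows held no match. The hexamer was found in 16.3% of all 32851 promoters of this length, the estrogen response element in 0.0700% and the Pit-1 core in 8.84%. Of the 79 promoters of the 63 members matched by symbol among all 76, 11 held the hexamer, 2 the Pit-1 core and 0 the estrogen response element. G and C made up 41.3% of the Sema3a window, 64.3% for Epha5, 68.3% for Unc5c and 72.0% for Ntn4.

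Transcripts of the sex chromosomes went against the label of a pair of libraries. Xist, a noncoding RNA made from the inactive X chromosome, was counted in 85.8% (labelled females) and 97.3% (labelled males) of nuclei at 22 months, against 0.212% (labelled females) and 0.112% (labelled males) at 5 months. Y-linked transcripts were counted in 0.304% and 0.203% of nuclei at 22 months, against 84.3% and 85.6% at 5 months. The libraries labelled 22-month males and 5-month females thus lacked the transcripts of their labelled sex. A difference by labelled age is also one between libraries with Xist and libraries with Y-linked transcripts, so age and sex cannot be told apart. Groups are named by their labels, and the ratio of the pair whose transcripts match their labels, 22-month females over 5-month males, is given as a value with no test.

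After filtering, 31343 nuclei remained: 7235 (labelled females) and 10355 (labelled males) at 22 months, and 6597 (labelled females) and 7156 (labelled males) at 5 months. Their median counts were 4745 and 4141 at 22 months, and 3643 and 3460 at 5 months. Clustering without the members gave 22 clusters named by markers and joined into 11 classes, with 748 nuclei unnamed, and 157 barcodes occurred in more than 1 library. Lactotrope-like and somatotrope-like nuclei of the ages lay mostly in different clusters (lactotrope-like: 4, 6, 7 and 11 at 22 months, against 24 at 5 months; somatotrope-like: 0 and 1 at 22 months, against 8 and 9 at 5 months). Prl, the prolactin gene, was counted in every class, with 3008 to 83523 counts per 1000000 (CPM) outside lactotrope-like nuclei, so RNA of other cells is among the counts of a class.

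All 71 guidance genes were counted in some class, and 50 had 20 or more counts in every library of at least 1 class. Levels by class are given without a test, as CPM of the summed counts of a class in a library or as the mean ± SD over the 4 libraries. Fewer expressing nuclei and less RNA per nucleus cannot be told apart in such sums. Of the 50 genes, 26 had the same highest class in all 4 libraries: 6 each in endothelial-like and melanotrope-like nuclei, 4 in pituicyte-like, 3 in corticotrope-like, 2 each in lactotrope-like and stem-like, and 1 each in gonadotrope-like, macrophage-like and fibroblast-mural-like nuclei. For 10 of them the highest class had 20 or more counts and at least 2-fold the level of the next class in every library, and all 10 kept that class in a finer clustering. Corticotrope-like, melanotrope-like, gonadotrope-like and pituicyte-like nuclei were as many in every library under that clustering, so it hardly tests the genes of these classes. Such patterns were not counted over all features, so these counts do not show that guidance genes differ from other genes in this.

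**Figure D1:**
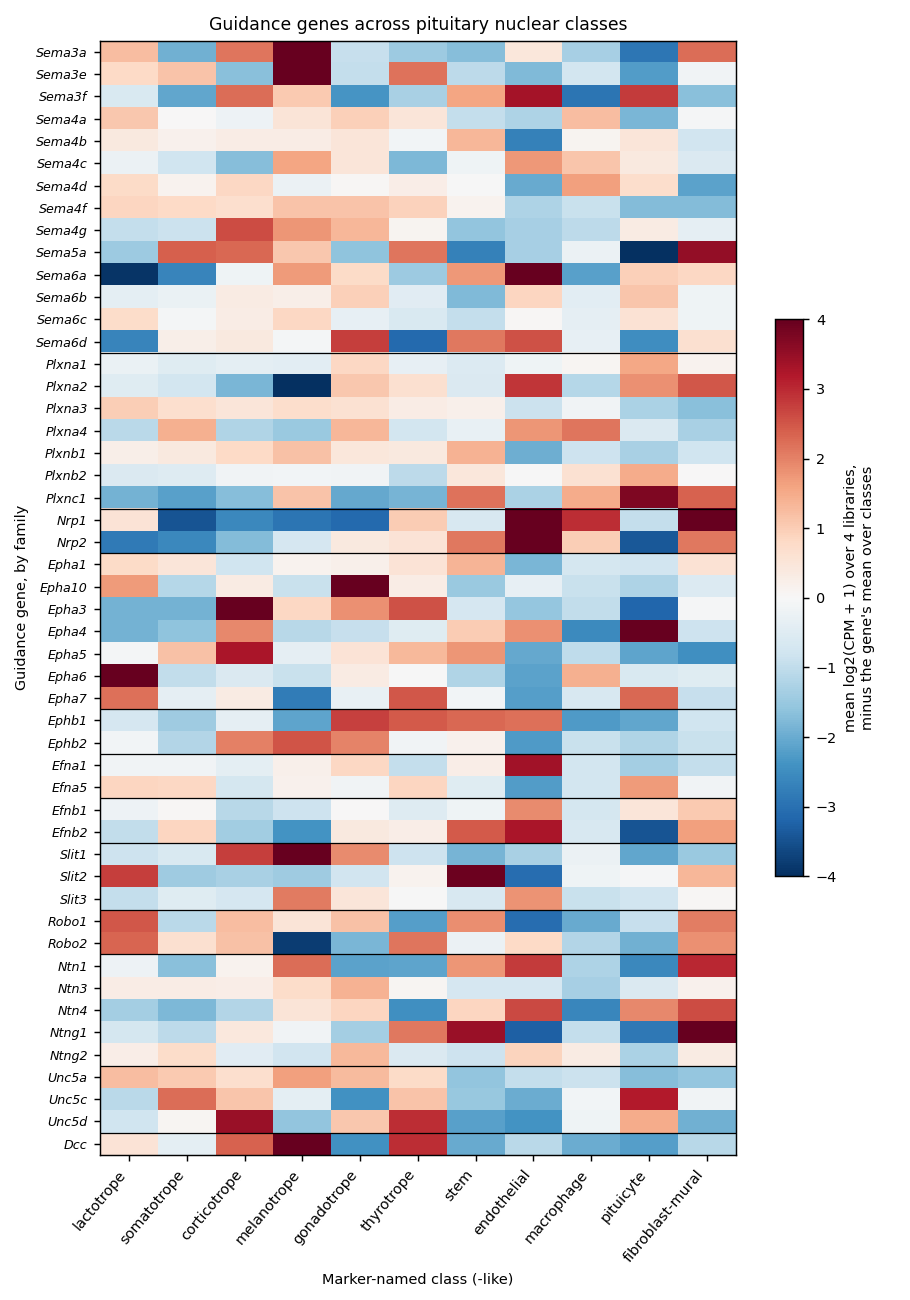
Rows are the 50 guidance genes with 20 or more counts in every library of a class, grouped by family, and columns the 11 classes; colour is the mean of log2(CPM + 1) over the 4 libraries minus the gene's mean over classes, with values past the ends of the scale in its end colours. Nrp1, Nrp2, Sema6a and Efna1 are reddest in the endothelial-like column, and Sema3a, Sema3e, Slit1 and Dcc in the melanotrope-like column.

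Among secreted ligands, Sema3e and Sema3a were highest in melanotrope-like nuclei, cells of the intermediate lobe that make melanocyte-stimulating hormone from Pomc. Sema3e, whose receptor is Plxnd1, had 352 (labelled females) and 336 CPM (labelled males) at 22 months, against 262 (labelled females) and 203 CPM (labelled males) at 5 months. This was at least 3.54 times the level of any other class in the same library, and thyrotrope-like nuclei came next with 59.6 ± 18.5 CPM. Sema3a, a repellent that binds Nrp1 and signals through A-type plexins, had 491 (labelled females) and 435 CPM (labelled males) at 22 months, against 479.9 (labelled females) and 332 CPM (labelled males) at 5 months in melanotrope-like nuclei. The ages overlapped for Sema3a and not for Sema3e, which did not pass the test of labelled age there. Slit1, a ligand of Robos, was also highest in this class, with 139 ± 15.1 CPM beside 38.5 ± 11.5 CPM in corticotrope-like nuclei.

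The neuropilins, Plxna2 and Plxnc1 were highest outside the hormone classes. Nrp2, a co-receptor of class 3 semaphorins and vascular endothelial growth factors, had 776 (labelled females) and 472 CPM (labelled males) at 22 months, against 914 (labelled females) and 691 CPM (labelled males) at 5 months in endothelial-like nuclei. The ages overlapped, and each value was at least 4.54 times that of any other class. Nrp1 averaged 889 ± 171 CPM in endothelial-like and 523 ± 183 CPM in fibroblast-mural-like nuclei. The transmembrane semaphorin Sema6a averaged 741 ± 145 CPM in endothelial-like nuclei, at least 3.87 times any other class, and its receptor Plxna2 was highest in the same class with 293 ± 22.0 CPM. Plxnc1, the receptor of Sema7a, was highest in pituicyte-like nuclei with 166 ± 28 CPM, while Sema7a averaged 76.2 ± 37.2 CPM in endothelial-like nuclei.

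Of the 21 guidance genes below 20 counts, 9 still had 1 highest class in all libraries, endothelial-like for 8 and stem-like for Ephb3. Endothelial-like nuclei numbered only 50 to 141 a library. Robo4, a Robo of blood vessels, had 245 (labelled females) and 143 CPM (labelled males) at 22 months, against 265 (labelled females) and 123 CPM (labelled males) at 5 months there, with the ages overlapping, and at most 2.16 CPM in any other class. Robo3, which lies 553 bases from Robo4 on the other strand of chromosome 9, averaged 99.6 ± 24.2 CPM in the same class. No source used here says whether counting used strand, so reads of close or overlapping genes may not be separable. The others were Plxnd1 (162 ± 95.7 CPM), Sema3d (144 ± 55.1 CPM), Ephb4 (128 ± 19.1 CPM), Sema7a, Sema5b and Unc5b.

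Of the 10 genes with a distinct class, 5 are EphA receptors, in 4 different classes. Epha5 had 1579 (labelled females) and 1592 CPM (labelled males) at 22 months, against 1342 (labelled females) and 1517 CPM (labelled males) at 5 months in corticotrope-like nuclei, the class that makes adrenocorticotropic hormone. Epha3 was highest in the same class with 285 ± 36.2 CPM, beside 54.9 ± 22.2 CPM in thyrotrope-like nuclei. Epha4, which binds both groups of ephrins, had 225 (labelled females) and 234 CPM (labelled males) at 22 months, against 279 (labelled females) and 165 CPM (labelled males) at 5 months in pituicyte-like nuclei, at least 4.72 times any other class. Epha10, a receptor without kinase activity, was highest in gonadotrope-like nuclei with 65.3 ± 26.0 CPM, and Epha6 in lactotrope-like nuclei with 861 ± 619.7 CPM, where the ages differed as given below. Of their ligands, Efna5 was highest in pituicyte-like nuclei (1076 ± 151 CPM) and Efna1 in endothelial-like nuclei (74.2 ± 19.9 CPM).

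Slit2 had 1582 (labelled females) and 1279 CPM (labelled males) at 22 months, against 1313 (labelled females) and 1486 CPM (labelled males) at 5 months in stem-like nuclei, and the ages overlapped. Its next class was lactotrope-like nuclei with 676 ± 271 CPM. Its receptor Robo1 averaged 769 ± 181 CPM in lactotrope-like and 563 ± 70.3 CPM in fibroblast-mural-like nuclei. Robo2 averaged 963 ± 239 CPM in lactotrope-like and 838 ± 71.6 CPM in thyrotrope-like nuclei, a difference inside the spread between libraries.

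Dcc, the receptor through which Ntn1 attracts axons, had 3659 (labelled females) and 3834 CPM (labelled males) at 22 months, against 3639 (labelled females) and 3278 CPM (labelled males) at 5 months in melanotrope-like nuclei. Each value was at least 4.32 times that of any other class, and thyrotrope-like nuclei came next with 718 ± 194 CPM. Unc5c, a receptor through which netrins repel, averaged 1478 ± 781 CPM in pituicyte-like and 670.0 ± 88.7 CPM in somatotrope-like nuclei. Of the netrins, the membrane-anchored Ntng1 averaged 481 ± 232 CPM in fibroblast-mural-like and 271 ± 162 CPM in stem-like nuclei, and Ntn4, a laminin-binding netrin of basement membranes, 112 ± 44.1 CPM in fibroblast-mural-like and 111 ± 17.7 CPM in endothelial-like nuclei.

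**Figure D2:**
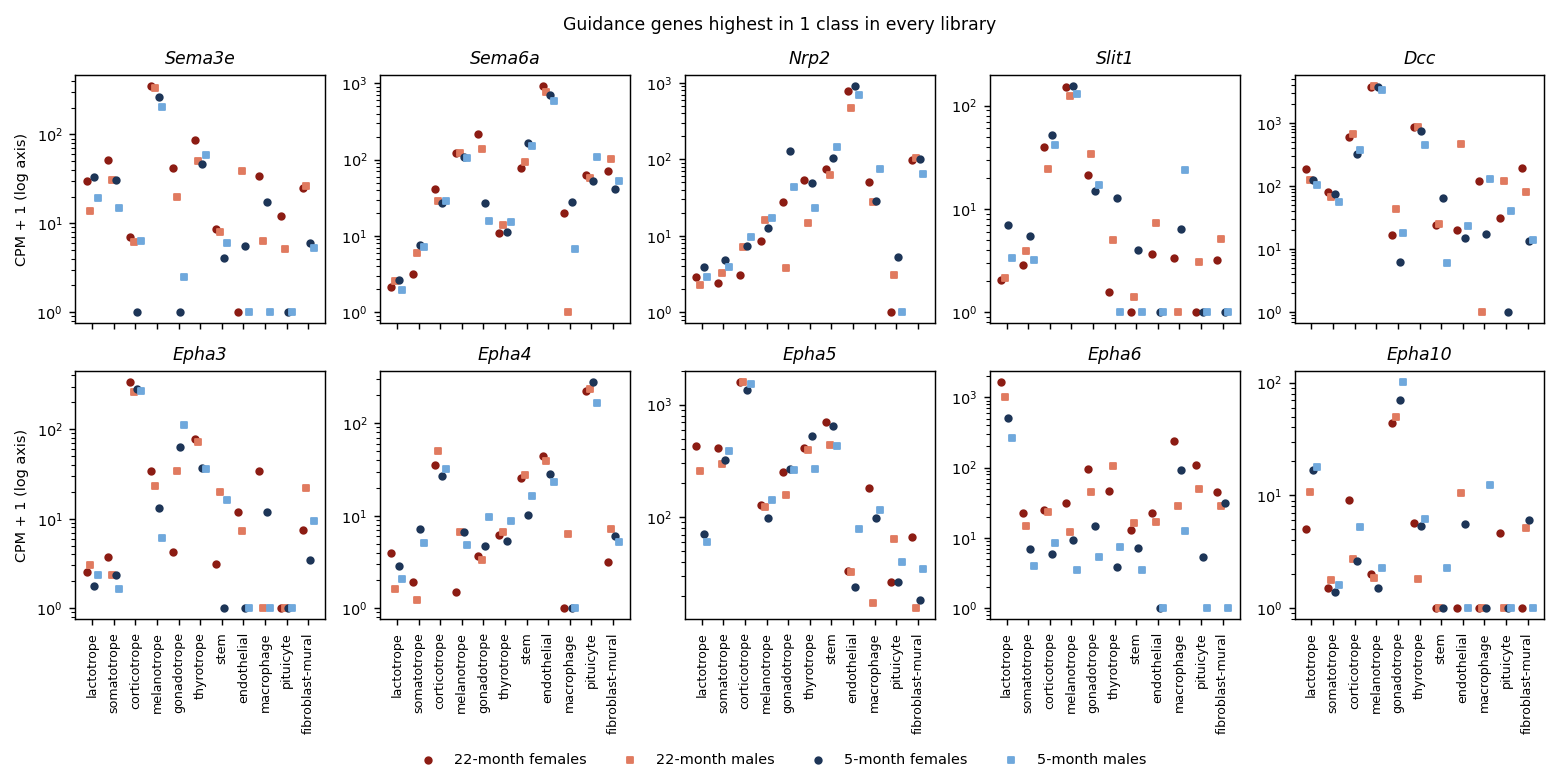
CPM + 1 (log axis) of the 10 guidance genes with a distinct highest class; each point is 1 library in 1 class, red for 22 months and blue for 5 months, circles for labelled females and squares for labelled males. Dcc stands apart in melanotrope-like nuclei and Epha6 in lactotrope-like nuclei, where both 22-month points lie above both 5-month points.

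Labelled age was tested in each class, 2 libraries against 2 with labelled sex as a term, by the quasi-likelihood F-test of edgeR, with p-values adjusted by the Benjamini-Hochberg method over all genes kept in the class and a threshold of 0.05. Folds are log2, 22-month over 5-month, with an approximate standard error. The fit has 1 residual degree of freedom, to which edgeR adds prior degrees of freedom shared over genes, from 4.41 in macrophage-like to 62.3 in stem-like nuclei. The p-values thus rest mostly on a spread between these pools that is shared over genes. They do not measure the spread between mice. Refits without 1 library also drop labelled sex as a term and assume that the lone library of an age varies like the other age. The share of all genes that passed moved in these refits too, so their counts of members are not results about the members.

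In lactotrope-like nuclei, the prolactin class, 20 of 54 guidance genes tested passed, 11 higher and 9 lower at 22 months, beside 19.9% of all genes tested (10.6% higher and 9.28% lower). The members' median log2 fold was -0.10 and that of all genes -0.02. Sema3a, Plxna4, Ntn1 and Unc5c rose most and Ntn4 fell most. With plain totals in place of TMM scaling the median of all genes moved to -0.21, members split into 10 higher and 13 lower, and all genes into 1228 higher and 3190 lower in place of 1769 and 1546.

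Sema3a (mm10 chromosome 5, 13125414 to 13602565), whose promoter is printed above, had 415 (labelled females) and 182 CPM (labelled males) at 22 months, against 14.5 (labelled females) and 6.93 CPM (labelled males) at 5 months in lactotrope-like nuclei. Both 22-month values lay far above both 5-month values, and the log2 fold was 4.97 ± 0.13 (edgeR adjusted p = 1.75e-05, at most 0.0166 with any library left out). Plxna4 (chromosome 6, 32144268 to 32588192), an A-type plexin that carries class 3 semaphorin signals, had 269.8 (labelled females) and 139 CPM (labelled males) at 22 months, against 3.63 (labelled females) and 3.80 CPM (labelled males) at 5 months. The groups did not overlap, and the log2 fold was 5.94 ± 0.23 (edgeR adjusted p = 6.29e-05, at most 0.0109 with any library left out). Its antisense RNA Plxna4os3 moved alike (5.62 ± 0.43), and reads of the overlapping pair cannot be told apart without strand. Nrp1, the neuropilin that Sema3a binds, rose by less (1.06 ± 0.14, edgeR adjusted p = 0.00458). Sema3f, which binds Nrp2, fell (-1.82 ± 0.27, edgeR adjusted p = 0.00754; 0.0946 without 5-month females).

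The netrin system of lactotrope-like nuclei moved in both directions. Ntn4 (chromosome 10, 93640681 to 93747207) had 0.973 (labelled females) and 0.840 CPM (labelled males) at 22 months, against 25.2 (labelled females) and 21.9 CPM (labelled males) at 5 months, on 20 and 20 counts at 22 months, against 229 and 161 at 5 months. The groups did not overlap, and the log2 fold was -4.50 ± 0.25 (edgeR adjusted p = 0.000188, at most 0.00448 with any library left out). Unc5c (chromosome 3, 141465216 to 141834924) had 244 (labelled females) and 117 CPM (labelled males) at 22 months, against 38.3 (labelled females) and 16.4 CPM (labelled males) at 5 months, with a log2 fold of 2.93 ± 0.12 (edgeR adjusted p = 7.99e-05, at most 0.0469 with any library left out). Both 22-month values again lay above both 5-month values. Ntn1, a ligand of Unc5c and Dcc, rested on 1127 and 379 counts at 22 months, against 5 and 4 at 5 months, with a log2 fold of 6.19 ± 0.35 (edgeR adjusted p = 0.000207; 0.0583 without 5-month females). Dcc rose by 0.60 ± 0.12.

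Eph receptors of lactotrope-like nuclei also moved both ways. Epha5 (chromosome 5, 84054761 to 84417382) had 424 (labelled females) and 256 CPM (labelled males) at 22 months, against 70.6 (labelled females) and 59.8 CPM (labelled males) at 5 months, a log2 fold of 2.53 ± 0.15 (edgeR adjusted p = 0.000258, at most 0.0237 with any library left out). Epha6, highest in this class in every library, had 1663 (labelled females) and 1014 CPM (labelled males) at 22 months, against 509 (labelled females) and 259 CPM (labelled males) at 5 months. The groups did not overlap, and the log2 fold was 2.02 ± 0.14 (edgeR adjusted p = 0.0005; 0.0727 without 5-month males). Ephb1, Epha1, Epha10 and Epha7 fell, with log2 folds of -1.62, -1.40, -1.18 and -0.66. DESeq2 called neither Ephb1 (adjusted p = 0.0696) nor Epha1 (adjusted p = 0.0958), and both calls were lost whichever library was left out. Of the ligands, Efna1 rose (1.69) and Efnb2 fell (-1.19). The log2 ratio of Efna1 was 2.31 between labelled females and 0.68 between labelled males. Its call was lost without 22-month females, 5-month females or 5-month males, and that of Efnb2 without either 5-month library. Slit2 (1.18 ± 0.13) and its receptor Robo1 (0.65 ± 0.17) both rose, and Ntng1 (-0.85) and Plxnb1 (-0.57) fell. The groups of Ntng1 overlapped. The test favours genes whose groups do not overlap, so a gap between groups is no further support for a call.

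Sema3a, Plxna4, Ntn4, Unc5c and Epha5 are the 5 of these genes that passed whichever library was left out, beside 2.73% of all genes. In fits with 1 library left out, which carry no term for labelled sex, members that passed numbered 11 without 22-month females, 18 without 22-month males, 6 without 5-month females and 9 without 5-month males. For 22-month females over 5-month males alone the log2 ratio was 5.90 for Sema3a, 6.15 for Plxna4, 3.89 for Unc5c, 2.83 for Epha5 and -4.49 for Ntn4. The part of the split into different clusters in these differences was not tested.

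**Figure D3:**
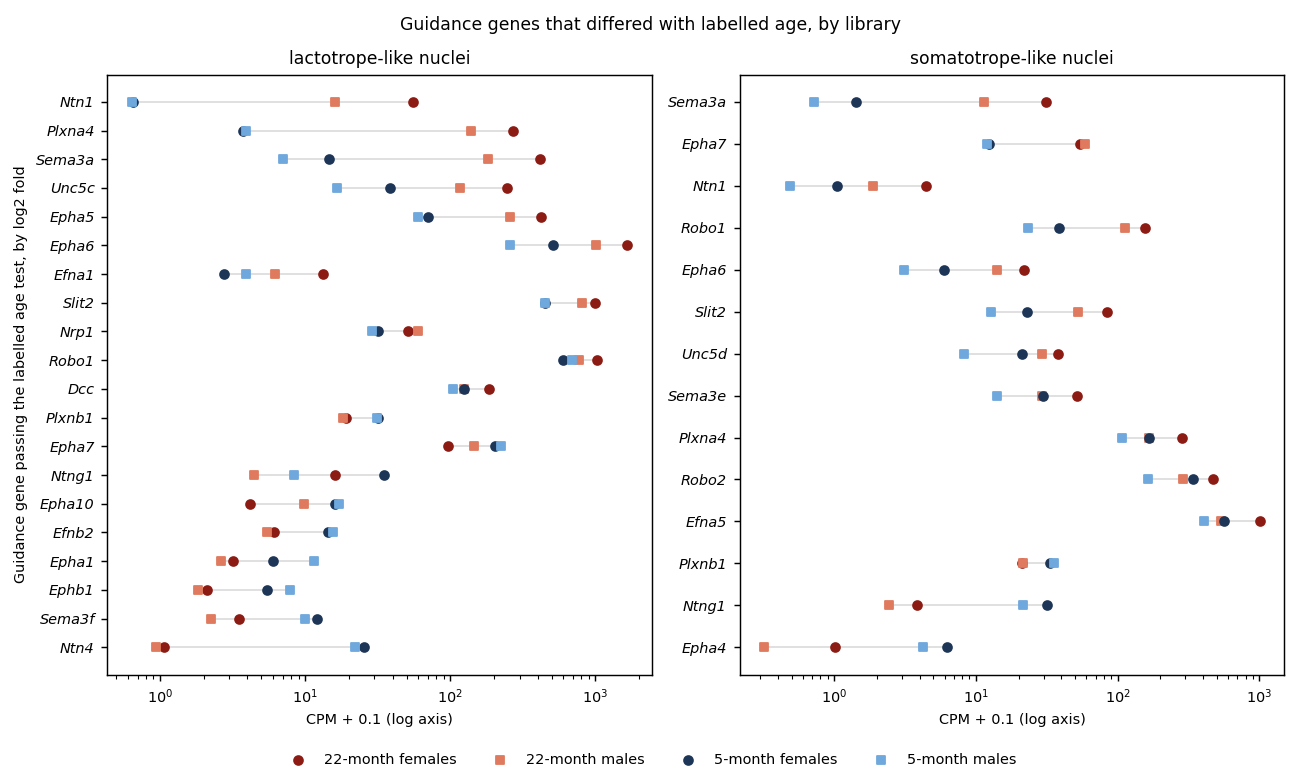
CPM + 0.1 (log axis) of the guidance genes that passed the labelled age test, 20 in lactotrope-like nuclei (left) and 14 in somatotrope-like nuclei (right), ordered by log2 fold; each point is 1 library, red for 22 months and blue for 5 months. Red points lie far right of blue ones for Ntn1, Plxna4 and Sema3a in lactotrope-like nuclei and for Sema3a and Epha7 in somatotrope-like nuclei, and left of them for Ntn4 in lactotrope-like and Ntng1 in somatotrope-like nuclei.

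In somatotrope-like nuclei, the growth hormone class, 14 of 50 guidance genes passed, 11 higher and 3 lower at 22 months, beside 6.65% of all genes tested (4.41% higher and 2.24% lower), with medians of 0.06 for members and -0.02 for all genes. Sema3a, Epha7, Robo1 and Ntng1 passed whichever library was left out, beside 0.405% of all genes. Members that passed numbered 4 without 22-month females, 6 without 22-month males, 7 without 5-month females and 7 without 5-month males.

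Epha7, a receptor of ephrin-A ligands, had 54.3 (labelled females) and 59.0 CPM (labelled males) at 22 months, against 12.2 (labelled females) and 11.8 CPM (labelled males) at 5 months in somatotrope-like nuclei. Its log2 fold was 2.27 ± 0.15 (edgeR adjusted p = 0.000117, at most 0.00811 with any library left out), against the fall in lactotrope-like nuclei. Robo1 had 155 (labelled females) and 112 CPM (labelled males) at 22 months, against 38.5 (labelled females) and 23.3 CPM (labelled males) at 5 months, a log2 fold of 2.16 ± 0.13 (edgeR adjusted p = 8.61e-05, at most 0.0334 with any library left out). Neither gene's groups overlapped. Ntng1, which binds Lrrc4c, fell: it had 3.76 (labelled females) and 2.33 CPM (labelled males) at 22 months, against 31.6 (labelled females) and 21.3 CPM (labelled males) at 5 months, a log2 fold of -3.09 ± 0.21 (edgeR adjusted p = 0.000135, at most 0.0157 with any library left out).

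Sema3a was low in somatotrope-like nuclei, with 30.9 (labelled females) and 11.3 CPM (labelled males) at 22 months, against 1.32 (labelled females) and 0.621 CPM (labelled males) at 5 months and a log2 fold of 4.41 ± 0.28 (edgeR adjusted p = 8.8e-05, at most 0.0326 with any library left out). These levels were 7.45% and 6.22% of the lactotrope-like ones at 22 months, against 9.11% and 8.96% at 5 months. Epha6 (2.06) stood at 1.30% and 1.38% of its lactotrope-like level at 22 months, against 1.15% and 1.17% at 5 months. The part of RNA from lactotrope-like nuclei in these differences was not tested. Slit2 rose by 2.0 ± 0.14 (0.11 without 22-month females, as an adjusted p from edgeR). Epha4 fell (-3.16 ± 0.48) on 9 and 2 counts at 22 months, against 65 and 53 at 5 months, and was lost without 22-month females, 22-month males or 5-month females. The others were Ntn1 (2.21), Unc5d (1.35), Sema3e (0.95), Plxna4 (0.72), Robo2 (0.67), Efna5 (0.65) and Plxnb1 (-0.67), of which Sema3e, Plxna4, Robo2 and Efna5 had overlapping groups. The calls of Ntn1, Sema3e, Plxna4, Robo2, Efna5 and Plxnb1 were lost with each of the 4 libraries left out, that of Unc5d without 22-month females, 22-month males or 5-month males, and that of Epha6 without 22-month females or 5-month males. DESeq2 called neither Ntn1 (adjusted p = 0.257) nor Plxnb1 (adjusted p = 0.262).

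Whether the labelled age effect differed between lactotrope-like and somatotrope-like nuclei was tested in 1 edgeR fit over the sums of all 11 classes. Its 20 residual degrees of freedom come from classes of the same 4 libraries, which share 1 estimate of the spread. Only 2 pools stand behind each age, so its p-values do not measure the spread between pools. The effect differed for 10 of 55 guidance genes tested, beside 4.95% of the 15017 genes tested. The difference, lactotrope-like minus somatotrope-like, was 5.18 ± 0.37 for Plxna4 (edgeR adjusted p = 3.05e-11), which in somatotrope-like nuclei had 284 and 165 CPM at 22 months, against 167 and 107 CPM at 5 months. It was -4.72 ± 0.57 for Ntn4 (edgeR adjusted p = 8.07e-07), which in somatotrope-like nuclei had 2.95 and 6.09 CPM at 22 months, against 3.03 and 4.81 CPM at 5 months. It was -2.91 ± 0.38 for Epha7, 2.68 ± 0.60 for Unc5c and 2.51 ± 0.47 for Epha5. Sema3a and Epha6 were not among the 10, which does not show that their effects were alike.

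In gonadotrope-like nuclei, the class of luteinizing and follicle-stimulating hormone, 20 of 43 guidance genes passed, 16 higher and 4 lower at 22 months, beside 13.4% of all genes tested (7.79% higher and 5.58% lower), with medians of 0.41 for members and -0.01 for all genes. None passed with every library left out in turn: the count was 20 without 22-month females, 12 without 22-month males, 1 without 5-month females and 2 without 5-month males. Nuclei of the ages lay in different clusters, 18 at 22 months, against 26 and 29 at 5 months, and all of cluster 29 came from 5-month males. The summed level of 6 immediate-early genes (Btg2, Egr1, Fos, Ier2, Jun and Junb) was 112 (labelled females) and 177 CPM (labelled males) at 22 months, against 166 (labelled females) and 3261 CPM (labelled males) at 5 months. The library labelled 5-month males stood apart, and the part of these genes in the results was not tested.

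Of the semaphorins, Sema6a, Sema3a, Sema3e and Sema5a passed in gonadotrope-like nuclei, all higher at 22 months. Sema6a had 218 (labelled females) and 135 CPM (labelled males) at 22 months, against 25.7 (labelled females) and 14.6 CPM (labelled males) at 5 months, a log2 fold of 3.26 ± 0.23 (edgeR adjusted p = 6.76e-12; 0.0536 without 5-month males). Sema3a had 44.1 (labelled females) and 31.1 CPM (labelled males) at 22 months, against 1.47 (labelled females) and 5.83 CPM (labelled males) at 5 months, a log2 fold of 3.43 ± 0.45 (edgeR adjusted p = 1.7e-06; 0.0781 without 5-month females). In both, the groups did not overlap. Sema3e had 63 and 40 counts at 22 months, against 0 and 2 at 5 months. Between labelled females it was at least 18.8-fold higher at 22 months, with a floor of 3 counts for the library at 0, and between labelled males 12.8-fold higher (95% interval of the log2 ratio 1.73 to 6.77, counting error only).

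Nrp2 fell in gonadotrope-like nuclei, with 27.0 (labelled females) and 2.79 CPM (labelled males) at 22 months, against 128 (labelled females) and 42.3 CPM (labelled males) at 5 months and a log2 fold of -2.57 ± 0.30 (edgeR adjusted p = 1.87e-07; lost without either 5-month library). Epha3 (-2.26 ± 0.31), Robo1 (-0.93 ± 0.20) and Epha10 (-0.76 ± 0.22) fell too. Epha6 (3.09 ± 0.30), Sema5a (2.57 ± 0.42), the ephrin Efna5 (1.81 ± 0.21) and Ntn4 (1.62 ± 0.32) rose. The call of Ntn4, whose fold in lactotrope-like nuclei is negative, was lost without 5-month females (edgeR adjusted p = 0.352) and by DESeq2 (adjusted p = 0.0716). For 22-month females over 5-month males alone the log2 ratios were -0.65 for Nrp2, 0.60 for Ntn4, 1.66 for Sema5a, -5.07 for Epha3 and 4.46 for Epha6. Unc5d (1.56), Dcc (1.53) and Slit2 (1.39) also rose, but for 22-month females over 5-month males alone their log2 ratios were -0.52, -0.09 and -0.25. The groups of these 3 genes and of Ephb1 overlapped. Robo2, Unc5c, Ephb1, Epha7, Plxna4 and Plxna2 had log2 folds between 0.87 and 1.37.

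In thyrotrope-like nuclei 4 of 32 guidance genes passed, all higher at 22 months, beside 1.85% of all genes tested (1.17% higher and 0.674% lower). Robo1 had 64.7 (labelled females) and 138 CPM (labelled males) at 22 months, against 13.1 (labelled females) and 5.22 CPM (labelled males) at 5 months, a log2 fold of 3.42 ± 0.46 (edgeR adjusted p = 0.00826). Epha6 (3.94 ± 0.37) and Plxna4 (1.89 ± 0.28) rose as well. Ntng1 had 455 (labelled females) and 88.7 CPM (labelled males) at 22 months, against 42.1 (labelled females) and 39.1 CPM (labelled males) at 5 months, so that 1 library carried most of its log2 fold of 2.42 ± 0.41. All 4 calls were lost without either 5-month library, when the count was 0 and 0, and it was 7 without 22-month females and 9 without 22-month males. With plain totals, 6 were higher and 2 lower.

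In corticotrope-like nuclei 3 of 31 passed, all higher, beside 1.39% of all genes tested (1.01% higher and 0.373% lower). Plxna4 had 70.8 (labelled females) and 46.1 CPM (labelled males) at 22 months, against 9.62 (labelled females) and 15 CPM (labelled males) at 5 months, a log2 fold of 2.15 ± 0.38 (edgeR adjusted p = 0.00364, at most 0.0103 with any library left out). Slit2 (1.54 ± 0.31) and Dcc (0.89 ± 0.18) were the others. The count was 3 without 22-month females, 8 without 22-month males, 2 without 5-month females and 1 without 5-month males. DESeq2 called none and gave Plxna4 and Slit2 no adjusted p.

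In melanotrope-like nuclei 6 of 45 passed, all higher, beside 2.49% of all genes tested (1.44% higher and 1.05% lower). They were Epha6 (1.97), Epha3 (1.70), Sema3c (1.65), Robo2 (1.26), Plxna4 (1.18) and Slit2 (1.07). Sema3c, a secreted semaphorin, had 43.2 (labelled females) and 10.2 CPM (labelled males) at 22 months, against 9.76 (labelled females) and 6.35 CPM (labelled males) at 5 months, so that 1 library stood out. Slit2 had 107 (labelled females) and 257 counts (labelled males) at 22 months, against 89 (labelled females) and 16 counts (labelled males) at 5 months. Its log2 ratio was 0.22 between labelled females (95% interval -0.20 to 0.64, counting error only). Between labelled males it was 2.40, so that the library labelled 5-month males stood out. The class joins clusters 13 and 25. Cluster 13 held 332 nuclei (labelled females) and 955 (labelled males) at 22 months, against 367 (labelled females) and 80 (labelled males) at 5 months, and cluster 25 held 1 and 6 at 22 months, against 10 and 291 at 5 months, so that 5-month males lay mostly in another cluster. The part of this split was not tested. The count was 1 without 22-month females, 2 without 22-month males, 1 without 5-month females and 0 without 5-month males. Immediate-early genes summed to 233 (labelled females) and 199 CPM (labelled males) at 22 months, against 351 (labelled females) and 3731 CPM (labelled males) at 5 months in melanotrope-like nuclei. In corticotrope-like nuclei they summed to 146 (labelled females) and 231 CPM (labelled males) at 22 months, against 372 (labelled females) and 2327 CPM (labelled males) at 5 months, and their part was not tested.

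In stem-like nuclei, the class in the title of the series, 8 of 33 guidance genes passed, 3 higher and 5 lower at 22 months, beside 4.95% of all genes tested (2.37% higher and 2.58% lower), with medians of 0.05 for members and -0.01 for all genes. Ephb1, a receptor of ephrin-B ligands (mm10 chromosome 9, 101922128 to 102354693), had 15.1 (labelled females) and 13.7 CPM (labelled males) at 22 months, against 71.5 (labelled females) and 97.7 CPM (labelled males) at 5 months. The groups did not overlap, and the log2 fold was -2.66 ± 0.29 (edgeR adjusted p = 1.49e-10, at most 0.00316 with any library left out). It was the member that passed whichever library was left out, beside 0.388% of all genes, and its ratio for 22-month females over 5-month males alone was -2.70 on the log2 scale. Ntng1 fell as well, with 102 (labelled females) and 184 CPM (labelled males) at 22 months, against 470.0 (labelled females) and 329 CPM (labelled males) at 5 months and a log2 fold of -1.50 ± 0.21 (edgeR adjusted p = 2.46e-07; 0.117 without 5-month females).

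Nrp2 (-0.93), Plxnb1 (-0.93) and Sema6a (-0.91) also fell in stem-like nuclei, and Epha7 (0.99), Efna5 (0.77) and Robo1 (0.60) rose, each lost without 3 of the 4 libraries when these were left out singly. Slit2, abundant in this class, did not pass. The count was 4 without 22-month females, 6 without 22-month males, 1 without 5-month females and 2 without 5-month males. DESeq2 called 1 member. Immediate-early genes summed to 67.9 (labelled females) and 84.1 CPM (labelled males) at 22 months, against 123 (labelled females) and 762 CPM (labelled males) at 5 months, and their part was not tested.

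In endothelial-like nuclei none of 27 passed by edgeR, beside 0.209% of all genes tested (0.133% higher and 0.0759% lower), none had an unadjusted p under 0.05, and DESeq2 called none. In macrophage-like nuclei none of 12 passed by edgeR, beside 0% of all genes tested (0% higher and 0% lower), 2 had an unadjusted p under 0.05, and DESeq2 called none. In pituicyte-like nuclei 1 of 19 passed, beside 0.803% of all genes tested (0.509% higher and 0.294% lower): Epha6, on 29 and 23 counts at 22 months, against 1 and 0 at 5 months, lost without either 22-month library and given no adjusted p by DESeq2. The 5 markers of neurons, of which Rbfox3 was at 0, summed to 192 (labelled females) and 179.8 CPM (labelled males) at 22 months, against 64.5 (labelled females) and 77.5 CPM (labelled males) at 5 months in pituicyte-like nuclei, and their part was not tested. The same markers summed higher in every hormone class, up to 6844 CPM in melanotrope-like nuclei of 22-month females. They therefore do not mark neurons alone here.

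In fibroblast-mural-like nuclei 2 of 25 passed, beside 0.78% of all genes tested (0.479% higher and 0.301% lower). Dcc had 193 (labelled females) and 79.1 CPM (labelled males) at 22 months, against 12.5 (labelled females) and 12.7 CPM (labelled males) at 5 months, on 88 and 38 counts at 22 months, against 5 and 3 at 5 months. Its log2 fold was 3.47 ± 0.43 (edgeR adjusted p = 0.000745, at most 0.000333 with any library left out), and DESeq2 did not call it. Ntng1 fell by 0.99 on the log2 scale, a call lost without 22-month females (edgeR adjusted p = 0.654), without 5-month males (0.996) and by DESeq2. The 5 markers of neurons summed to 574 (labelled females) and 321 CPM (labelled males) at 22 months, against 247 (labelled females) and 174 CPM (labelled males) at 5 months in fibroblast-mural-like nuclei, none of them at 0 in all libraries, and their part was not tested. These sums too lay below those of every hormone class, where lactotrope-like nuclei had 2239 and 1712 CPM at 22 months, against 1704 and 1307 CPM at 5 months. Immediate-early genes summed to 87.7 (labelled females) and 91.6 CPM (labelled males) at 22 months, against 182 (labelled females) and 2203 CPM (labelled males) at 5 months, and their part was not tested. With doublets kept, 5 members passed in endothelial-like nuclei, beside 2.94% of all genes, 5 in macrophage-like, beside 2.86%, 5 in pituicyte-like, beside 1.54%, and 5 in fibroblast-mural-like nuclei, beside 4.03%.

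Over the 11 classes, Plxna4 and Epha6 passed in 6 each and Slit2 in 5, always with a positive log2 fold. How many of all genes passed in as many classes was not counted, so this does not set these genes apart. Plxna4 passed whichever library was left out only in lactotrope-like and corticotrope-like nuclei, and Epha6 and Slit2 did so in no class. For Slit2, groups overlapped in gonadotrope-like nuclei and 1 library stood out in melanotrope-like nuclei. Robo1 and Ntng1 passed in 5, Epha7 in 4, Ephb1 in 3, and Ntn4, Epha3 and Sema6a in 2, in both directions depending on the class. Classes of a library can share free RNA, so calls of 1 gene in several classes are not independent.

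**Figure D4:**
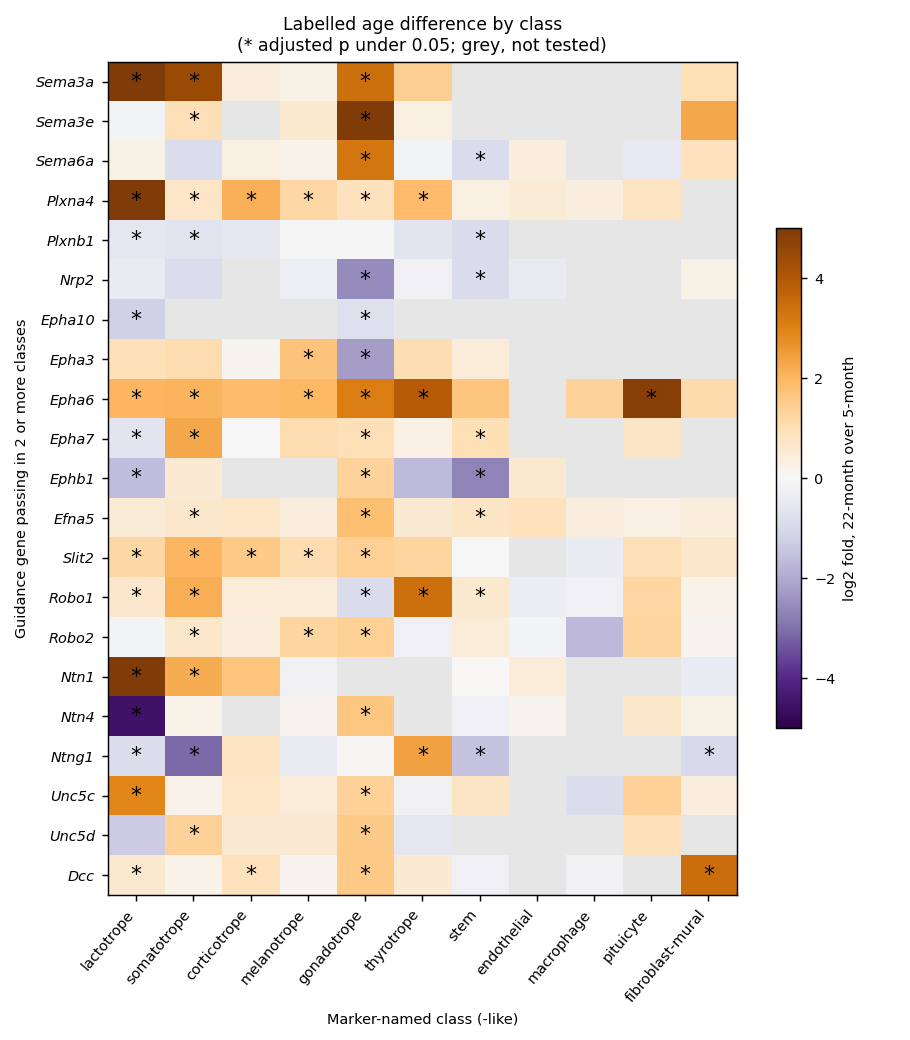
Colour is the log2 fold, 22-month over 5-month (orange higher, purple lower), of each guidance gene that passed in 2 or more classes (rows) in each class (columns); asterisks mark an edgeR adjusted p under 0.05 grey cells were not tested, and values past the ends of the scale take its end colours. Epha6, Plxna4 and Slit2 are orange wherever they passed, while Ntng1 and Robo1 carry asterisks in both colours.

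Epha6 is shown beside Prl because both were highest in lactotrope-like nuclei and higher at 22 months. Outside that class Epha6 stood at 0 to 18.1% of its lactotrope-like level. In macrophage-like nuclei, where it was not called and the ages overlapped, it had 239 (labelled females) and 27.0 CPM (labelled males) at 22 months, against 92.3 (labelled females) and 11.4 CPM (labelled males) at 5 months. Prl in the same nuclei stood at 85.0% and 93.8% of its lactotrope-like level at 22 months, against 41.5% and 31.9% at 5 months, and Prl was higher in both 22-month libraries than in both 5-month libraries in all 11 classes. How much of Epha6 outside lactotrope-like nuclei came from them was not tested. Sema3a in melanotrope-like nuclei exceeded the lactotrope-like level in every library, at 118% and 239.8% of it at 22 months, against 3303% and 4798% at 5 months.

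**Figure D5:**
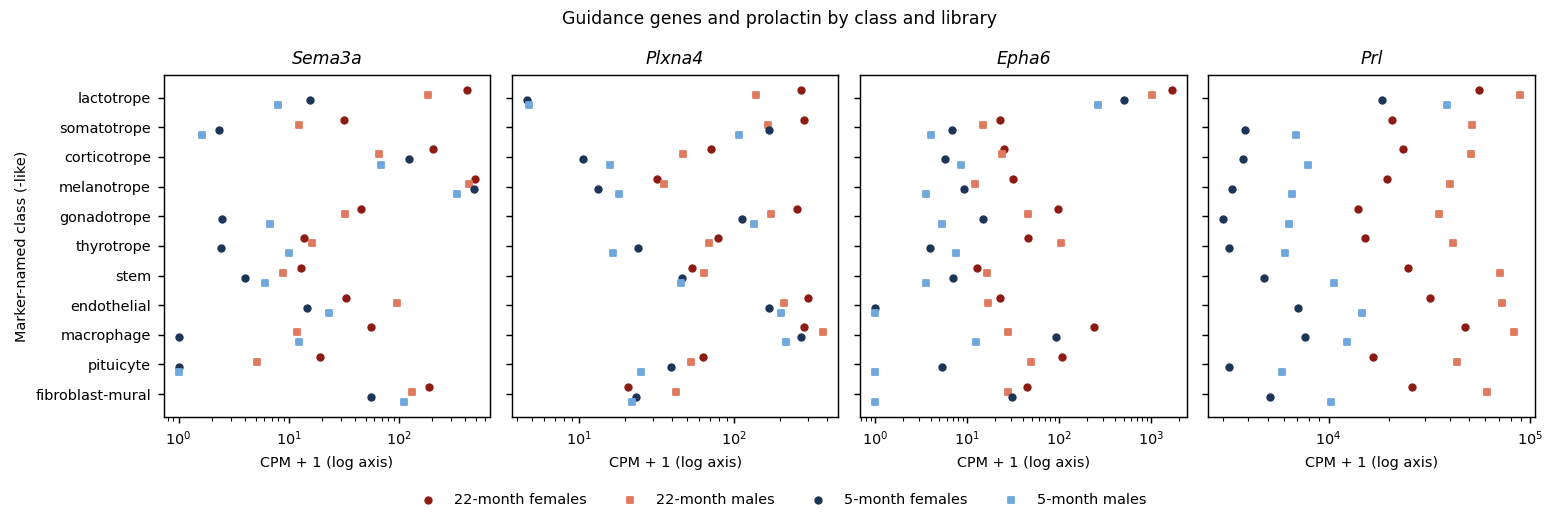
CPM + 1 (log axis) of Sema3a, Plxna4, Epha6 and the prolactin gene Prl in each class and library, red for 22 months and blue for 5 months, circles for labelled females and squares for labelled males. The points of Sema3a in melanotrope-like nuclei lie together, while in lactotrope-like nuclei the red and blue points of Sema3a and Plxna4 are far apart.

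Labelled sex was tested in the same fits as labelled females over labelled males. As transcripts of a pair of libraries go against these labels, it is not a comparison of sexes. In lactotrope-like nuclei 3 of 54 members passed, all higher, beside 0.18% of all genes tested (0.168% higher and 0.012% lower): Ntng1 (1.98 ± 0.19, edgeR adjusted p = 0.0467), Sema3a (1.16) and Unc5c (1.14). In somatotrope-like nuclei 3 of 50 passed, beside 0.906% of all genes tested (0.733% higher and 0.173% lower): Sema3e (0.90), Robo2 (0.83) and Plxna4 (0.67). In stem-like nuclei 1 of 33 passed, beside 0.916% of all genes tested (0.478% higher and 0.438% lower): Epha3 (-3.74 ± 0.75), lower. In corticotrope-like nuclei 2 of 31 passed, beside 0.424% of all genes tested (0.373% higher and 0.0518% lower): Sema3a (1.30) and Unc5d (1.08). In melanotrope-like nuclei 5 of 45 passed, beside 1.84% of all genes tested (1.23% higher and 0.607% lower): Sema3c (1.75), Unc5d (-1.75), Epha6 (1.51), Unc5c (1.31) and Ntng1 (-1.11). In gonadotrope-like nuclei 10 of 43 passed, 4 higher and 6 lower, beside 3.26% of all genes tested (2.03% higher and 1.24% lower), with the largest folds for Nrp2 (2.03), Unc5d (-1.86), Slit2 (-1.47), Dcc (-1.45) and Epha3 (-1.39). With doublets kept the log2 fold of Dcc there was 0.052. The count in gonadotrope-like nuclei was 1 by DESeq2, 1 with doublets kept, 3 with plain totals and 6 with median-ratio size factors. In melanotrope-like nuclei it was 2 with median-ratio size factors, 2 with doublets kept and 1 by DESeq2, which gave 4 of the 5 no adjusted p. In corticotrope-like nuclei it was 0 by DESeq2. Without labelled age as a term it was 0 in all 3 classes. In the other classes no member passed in these fits or by DESeq2. With other settings 4 passed in thyrotrope-like, 3 in macrophage-like and 1 in pituicyte-like nuclei with no filter on low counts, 3 in endothelial-like, 1 in macrophage-like and 1 in fibroblast-mural-like nuclei with doublets kept, and 2 in thyrotrope-like and 1 in pituicyte-like nuclei with plain totals. The shares of all genes under these other settings are not set beside the counts, so the counts are not results about the members. In thyrotrope-like nuclei 5 members had an unadjusted p under 0.05, and 0.0293% of all genes passed (0.0195% higher and 0.00977% lower). In endothelial-like nuclei 6 members had an unadjusted p under 0.05, and 0.0759% of all genes passed (0.019% higher and 0.0569% lower). In macrophage-like nuclei 5 members had an unadjusted p under 0.05, and 0% of all genes passed (0% higher and 0% lower). In pituicyte-like nuclei 3 members had an unadjusted p under 0.05, and 0.588% of all genes passed (0.157% higher and 0.431% lower). In fibroblast-mural-like nuclei 4 members had an unadjusted p under 0.05, and 0.164% of all genes passed (0.0957% higher and 0.0684% lower). With 1 library left out the fit carries no term for labelled age, so labelled sex and labelled age cannot be told apart there, and those counts do not test labelled sex.

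Of 20 further guidance cues and co-receptors, 16 were tested for labelled age in lactotrope-like nuclei, and 4 were higher and 1 lower, beside 19.9% of all genes in either direction, with a median log2 fold of 0.10. Flrt1, a ligand of Unc5 receptors, rose (1.39 ± 0.12, edgeR adjusted p = 0.000929), as did Lrrc4c, the partner of Ntng1 (1.18 ± 0.18), while Draxin, an antagonist of netrin signalling, fell (-2.12 ± 0.55). In somatotrope-like nuclei 4 of 15 were higher and 1 lower, beside 6.65% of all genes, with a median of 0.36: the adhesion molecules Chl1 (2.22 ± 0.31) and Nrcam (1.25 ± 0.13), the netrin co-receptor Dscam (1.12 ± 0.13) and Neo1, a relative of Dcc (0.86 ± 0.12), rose, and Lrrc4c fell (-0.69 ± 0.13). Dscam rose in gonadotrope-like nuclei too (3.52 ± 0.24, edgeR adjusted p = 2.06e-12), where 1 of 12 was higher and 3 lower, beside 13.4% of all genes. In stem-like nuclei 2 of 13 were higher, beside 4.95%. Genes of this list and of the effectors below were read from the main fits alone. Their calls were not checked with libraries left out or by DESeq2.

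Of 46 intracellular effectors of guidance receptors, 43 were tested in lactotrope-like nuclei, and 12 were higher and 2 lower, beside 19.9% of all genes in either direction, with a median log2 fold of 0.30. Pak3, a kinase that acts on the actin cytoskeleton, rose in lactotrope-like (2.02 ± 0.14) and somatotrope-like nuclei (2.70 ± 0.20) and fell in stem-like nuclei (-1.23 ± 0.23, edgeR adjusted p = 8.59e-05). Dpysl3, of the family that mediates growth cone collapse by Sema3a, rose in lactotrope-like (2.57 ± 0.40) and somatotrope-like nuclei (2.84 ± 0.40). In somatotrope-like nuclei 4 of 43 were higher and 1 lower, beside 6.65%, and in gonadotrope-like nuclei 8 of 40 were higher and 1 lower, beside 13.4%. In stem-like nuclei 4 of 39 passed by edgeR, beside 4.95%, all lower: Kalrn, Pak3, Mical2 and, with the largest fold, the actin-binding Ablim3 (-2.43 ± 0.36, edgeR adjusted p = 1.09e-06).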

How the data were processed

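The deposited values are raw counts of unique molecular identifiers per gene and barcode, made by the authors; the submitters' processing notes name Cell Ranger 7.0.1 and mm10. No source used here says whether introns were counted. Barcodes with fewer than 500 genes or over 5% mitochondrial counts were dropped, and 31343 of 38212 barcodes remained after doublets marked by Scrublet (score over 0.13463, set after seeing the scores) were left out. Nuclei were clustered with scanpy 1.11.5 (3000 variable genes without guidance, hormone, sex-linked and mitochondrial genes, 30 components, 15 neighbours, Leiden resolution 1, alternatively 2). Classes were named from marker lists, by a rule settled after the clusters were seen, and summed per library. Sums were tested with edgeR 4.0.16 in R 4.3.3 (TMM, filterByExpr, quasi-likelihood, Benjamini-Hochberg over all genes kept) and alternatively DESeq2 1.42.0. The tests were checked on simulated data.

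Members, lists and tests were chosen with earlier results of these data known. Genes named are those with a distinct class, the 12 with the largest folds past the threshold per class for labelled age and 5 for labelled sex, Ephb1 and Ntn4, and ligand or receptor partners; Plxna4os3, Robo3, Robo4 and the endothelial-like genes below 20 counts, as well as some further called genes, were named after their values were seen. Promoters, of RefSeq on GRCm38.p6, were matched by symbol, and none is printed for Plxna4. Intervals cover counting error only. The alternatives were other scaling, another test, no filter, no second label, each library left out, doublets kept and finer clustering.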

Additional observations from a re-analysis of the deposited data

Results flagged for a closer look

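For 10 guidance genes the labelled age effect in lactotrope-like nuclei differed from that in somatotrope-like nuclei by a test of the difference itself, the edgeR fit over all class sums described above. Values are log2, the effect in lactotrope-like minus that in somatotrope-like nuclei. It was 5.18 ± 0.37 for Plxna4 (edgeR adjusted p = 3.05e-11), 3.76 ± 0.88 for Ntn1 (edgeR adjusted p = 0.00685), 3.38 ± 0.81 for Epha4 (edgeR adjusted p = 0.00758), 2.68 ± 0.60 for Unc5c (edgeR adjusted p = 0.00398), 2.51 ± 0.47 for Epha5 (edgeR adjusted p = 0.000577) and 1.78 ± 0.54 for Sema6d (edgeR adjusted p = 0.0488). It was -4.72 ± 0.57 for Ntn4 (edgeR adjusted p = 8.07e-07), -2.91 ± 0.38 for Epha7 (edgeR adjusted p = 2.75e-06), -2.80 ± 0.76 for Unc5d (edgeR adjusted p = 0.022) and -1.38 ± 0.36 for Efnb2 (edgeR adjusted p = 0.0175). Epha7 fell in lactotrope-like and rose in somatotrope-like nuclei, Ntn1 rose in both, its somatotrope-like call (edgeR adjusted p = 0.0325) being lost with each of the 4 libraries left out (0.127 to 0.636) and by DESeq2 (adjusted p = 0.257), and Sema6d passed in neither class alone. Ntn1 in somatotrope-like nuclei had 4.37 and 1.77 CPM at 22 months, against 0.946 and 0.388 CPM at 5 months, and Epha4 in lactotrope-like nuclei had 2.92 and 0.630 CPM at 22 months, against 1.87 and 1.09 CPM at 5 months. The clusters that hold each class differ between the ages, and the part of this in the differences was not tested.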

How the results depend on the processing

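Members called for labelled age numbered 20 in lactotrope-like nuclei (19.9%), 14 in somatotrope-like nuclei (6.65%), 20 in gonadotrope-like nuclei (13.4%), 8 in stem-like nuclei (4.95%), 6 in melanotrope-like nuclei (2.49%), 3 in corticotrope-like nuclei (1.39%), 4 in thyrotrope-like nuclei (1.85%), 2 in fibroblast-mural-like nuclei (0.78%), 1 in pituicyte-like nuclei (0.803%), 0 in endothelial-like nuclei (0.209%) and 0 in macrophage-like nuclei (0%), with the share of all genes tested that passed in parentheses. Under the alternatives below the members' counts moved by over 1.5 times. Without labelled sex as a term, which leaves its differences in the spread, they were 12 in lactotrope-like nuclei (11.9%), 4 in somatotrope-like nuclei (0.707%), 5 in gonadotrope-like nuclei (2.15%), 2 in stem-like nuclei (1.64%), 0 in melanotrope-like nuclei (0.0719%), 1 in corticotrope-like nuclei (0.269%), 1 in fibroblast-mural-like nuclei (0.233%) and 0 in pituicyte-like nuclei (0.118%). By DESeq2 they were 10 in gonadotrope-like nuclei (2.92%), 1 in stem-like nuclei (0.763%), 2 in thyrotrope-like nuclei (0.712%), 0 in melanotrope-like nuclei (0.449%), 0 in corticotrope-like nuclei (0.44%), 0 in fibroblast-mural-like nuclei (0.157%) and 0 in pituicyte-like nuclei (1.15%). With doublets kept they were 11 in gonadotrope-like nuclei (6.23%), 6 in corticotrope-like nuclei (2.31%), 7 in thyrotrope-like nuclei (2.68%), 5 in endothelial-like nuclei (2.94%), 5 in macrophage-like nuclei (2.86%), 5 in pituicyte-like nuclei (1.54%) and 5 in fibroblast-mural-like nuclei (4.03%). With no filter on low counts they were 6 in corticotrope-like nuclei (1.54%), 11 in thyrotrope-like nuclei (3.32%) and 3 in pituicyte-like nuclei (0.761%). With median-ratio size factors there were 3 in melanotrope-like nuclei (1.2%), and with plain totals, chosen after seeing the data, 8 in thyrotrope-like nuclei (3.27%) and 3 in pituicyte-like nuclei (2.92%). The cause was not tested.

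Leaving out 1 library, in fits without labelled sex, gave 6 to 18 in lactotrope-like, 4 to 7 in somatotrope-like, 1 to 20 in gonadotrope-like, 1 to 6 in stem-like, 0 to 2 in melanotrope-like, 1 to 8 in corticotrope-like, 0 to 9 in thyrotrope-like, 1 to 4 in fibroblast-mural-like, 0 to 2 in pituicyte-like, 0 to 2 in endothelial-like and 0 to 6 in macrophage-like nuclei. The 10 differences of 55 tested between lactotrope-like and somatotrope-like nuclei became 16 of 71 with no filter on low counts. Their number moved in both directions with 1 library left out, where a lone library stands for an age. The share of all genes was not counted under these settings, so these changes are not results about the members.

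For labelled sex, the 3 calls in lactotrope-like nuclei, beside 0.18% of all genes, became 7 with median-ratio size factors (0.636%) and 7 with plain totals (0.889%). They became 13 with no filter (2.74%), 6 with doublets kept (0.569%), 5 by DESeq2 (0.876%) and 0 without labelled age as a term (0%). The 3 in somatotrope-like nuclei, beside 0.906%, became 1 with median-ratio size factors (0.771%), 8 with no filter (2.14%), 0 in the finer clustering and 0 without labelled age as a term. The 1 in stem-like nuclei became 3 with plain totals, 2 with doublets kept, 0 by DESeq2 and 0 without labelled age as a term. The 10 in gonadotrope-like nuclei, 5 in melanotrope-like and 2 in corticotrope-like, and those of the other classes, are given under other settings above. Counts given with no share of all genes are not results about the members. With 1 library left out the fits carry no labelled age, which then cannot be told apart from labelled sex. In them the counts were 0 in lactotrope-like, somatotrope-like, stem-like, gonadotrope-like and fibroblast-mural-like nuclei, 0 to 6 in melanotrope-like, 0 to 3 in corticotrope-like, 0 to 3 in thyrotrope-like, 1 to 2 in endothelial-like, 1 to 7 in macrophage-like and 0 to 1 in pituicyte-like nuclei.

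Direction reversed for 22-month females over 5-month males alone in gonadotrope-like nuclei for Unc5d (-0.52), Dcc (-0.086) and Slit2 (-0.25 on the log2 scale). For labelled sex it reversed with doublets kept in gonadotrope-like nuclei for Dcc (0.052). In the fits with 1 library left out and no labelled age, the labelled sex folds in lactotrope-like nuclei ranged over -2.87 to 5.15 for Sema3a and -0.96 to 3.28 for Unc5c, the negative values without 22-month females. There 5-month females stand against a library of each age, and these genes have large folds for labelled age, so these signs do not test the direction for labelled sex. Of the 79 calls of named members, 68 remained past the threshold with median-ratio size factors, 71 with plain totals, 72 in the finer clustering, 79 with no filter, 64 with doublets kept and 26 without the other label as a term. Finer clustering left nuclei per library unchanged in number in corticotrope-like, melanotrope-like, gonadotrope-like, stem-like, pituicyte-like and fibroblast-mural-like nuclei, so it hardly tests calls there. Of the 69 with an adjusted p from DESeq2, 40 remained by it, and 10 had none. The 79 calls join labelled age and labelled sex. With 1 library left out the fits carry no second label and do not test labelled sex. No count over the 79 is therefore given for those fits. For 22-month females over 5-month males alone, 30 age folds lay within the counting interval of this ratio, 26 outside it in the same direction and 3 were reversed. Beyond the term for labelled sex in the age fit, no paired analysis was possible because each group is 1 library. Depth limits the vascular, immune, glial and connective classes most, where few nuclei were counted.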
